A study of Mus musculus with 24 samples.

Results

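The 36 genes described here encode enzymes and carriers of fatty acid oxidation in mitochondria and peroxisomes. They were taken by symbol from a table of 40750 genes measured in mouse kidney, and all 36 were found and were abundant enough to be tested. The study followed kidneys after bilateral ischemia-reperfusion, in which both renal pedicles were clamped for 20 minutes. Male mice 8 to 10 weeks old, heterozygous for Kim1-GCE and for EGFPL10a (genotype Kim1-GCE+/-; EGFPL10a+/-) on a mixed background, were killed 2, 7 or 14 days after clamping (D2, D7 and D14) or after a sham operation without clamping, 3 mice in each group. All mice, sham included, received tamoxifen 6 hours before and 24 hours after surgery and carried both alleles. Beads with an antibody to GFP were used to pull RNA from kidney homogenate by translating ribosome affinity purification, which gave the bound RNA. The labels take the unbound RNA to stand for the total kidney. Both fractions were sequenced for each of the 12 mice, which gave 24 libraries in 8 groups of 3. Kim1 is the common name of Havcr1, an injury gene of the proximal tubule that is nearly silent in healthy kidney, so the cells that give bound RNA need not be the same in sham and injured mice.

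Fatty acids enter oxidation as acyl-CoA esters, reach the mitochondrial matrix through the carnitine shuttle and are shortened there in repeated turns of dehydrogenation, hydration, another dehydrogenation and thiolysis. Peroxisomes shorten very long and branched chains and oxidise other substrates with the release of hydrogen peroxide, which catalase removes. The proximal tubule draws most of its energy from fatty acids and holds many mitochondria and peroxisomes, and loss of this pathway is a known feature of injured kidney.

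Promoter sequences are shown for members that later results turn on. They come from RefSeq (mouse build GRCm38.p6), run from 250 bases before to 50 bases after the annotated start, and were found for 32 of the 36 genes. Hadha and Hadhb, the subunit genes of the trifunctional protein, stand head to head on chromosome 5 with starts 273 bases apart, so that their windows share 228 bases. Acadm and Hao2 are shown as members that were low against sham at D2 in bound RNA, and Cat as an example of a sequence match. Capitals mark matches to the motifs described after the sequences.
Hadha (chr5:30154931-30155230, minus strand): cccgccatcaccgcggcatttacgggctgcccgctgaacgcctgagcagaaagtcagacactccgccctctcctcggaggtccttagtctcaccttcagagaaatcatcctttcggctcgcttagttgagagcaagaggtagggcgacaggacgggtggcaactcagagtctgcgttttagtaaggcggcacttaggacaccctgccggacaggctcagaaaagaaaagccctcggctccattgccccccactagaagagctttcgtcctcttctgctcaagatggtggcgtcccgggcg
Acadm (chr3:153944594-153944893, minus strand): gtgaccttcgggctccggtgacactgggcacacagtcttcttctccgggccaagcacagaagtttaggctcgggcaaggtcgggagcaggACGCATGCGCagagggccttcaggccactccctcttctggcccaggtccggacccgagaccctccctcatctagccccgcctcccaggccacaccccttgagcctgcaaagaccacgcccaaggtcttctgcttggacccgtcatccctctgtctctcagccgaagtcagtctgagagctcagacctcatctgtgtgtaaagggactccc
Hao2 (chr3:98893181-98893480, minus strand): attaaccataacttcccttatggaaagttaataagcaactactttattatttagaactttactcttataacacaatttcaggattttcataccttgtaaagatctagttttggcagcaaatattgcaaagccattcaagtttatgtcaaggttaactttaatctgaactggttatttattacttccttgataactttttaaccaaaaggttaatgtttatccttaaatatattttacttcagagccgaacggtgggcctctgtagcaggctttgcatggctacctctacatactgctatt
Cat (chr2:103485104-103485403, minus strand): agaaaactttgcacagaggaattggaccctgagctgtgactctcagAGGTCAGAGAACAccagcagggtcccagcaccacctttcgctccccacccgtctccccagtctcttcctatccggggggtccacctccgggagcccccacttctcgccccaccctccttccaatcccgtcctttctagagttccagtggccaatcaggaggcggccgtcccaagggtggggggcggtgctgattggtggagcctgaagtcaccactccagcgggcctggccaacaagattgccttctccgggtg
Both strands of the windows were searched. The element bound by peroxisome proliferator-activated receptors, AGGTCA followed by any base and AGGTCA again, was found with up to 2 mismatches in 4 of the 32 genes with a window (12.5%: Cat, Echs1, Etfa and Acox2) and in 4.40% of 27025 genes in the table. The element of nuclear respiratory factor 1, GCGCA followed directly by its reverse complement TGCGC, was found with up to 1 mismatch in 4 of the 32 genes (12.5%: Acadm, Etfdh, Abcd3 and Etfb), against 7.13% of all genes. An exact TCAAGGTCA, bound by estrogen-related receptors, was in 0 of the 32 and in 0.466% of all genes. These matches describe letters in a 300-base window, and binding was not measured.

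Levels are given as RPKM as deposited, that is, reads scaled to the length of the gene and to the size of the library. Differences are log2 folds from a limma fit to log2(RPKM + 0.5) over 24 libraries. The words rose, fell and called are used where the p, adjusted by the Benjamini-Hochberg method over 13721 genes, was under 0.05. Where a mouse is said to be left out, its library of the fraction compared was dropped, unless both libraries are named. The depth inferred for a library was 15720000 to 24650000 reads. Havcr1 checked the labels: it had 50.5, 113 and 211 RPKM at D2 and 1.51, 1.49 and 5.61 RPKM in sham in bound RNA. Across all tested genes the median log2 fold against sham was 0.16, 0.13 and 0.18 at D2, D7 and D14 in bound RNA and 0.20, 0.18 and 0.22 in unbound RNA, and it lay between -0.03 and 0.01 once libraries were rescaled by median ratios, so the changes of the members stand against that shift. The third D14 mouse stood apart, with a correlation across genes of 0.901 with the mean of the other bound libraries, which correlated with each other at 0.975 (0.941 and 0.980 in unbound RNA). Its 6 macrophage markers summed to 1659 RPKM in bound RNA, against 144 and 98.8 RPKM in the other D14 mice. The third sham mouse also stood somewhat apart in bound RNA. Its library correlated at 0.936 with the mean of the other sham bound libraries, which correlated with each other at 0.972. RNA of a tissue cannot tell fewer cells of a type from less RNA per cell, and this holds for every comparison that follows.

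In bound RNA many enzymes of the pathway fell after injury, and those of the mitochondrial spiral made up most of the members still lower at D14. At D2, 17 of 36 members fell and 1 rose, while 6.48% of all tested genes fell, 13.3% rose and 19.8% were called in either direction. At D7, 16 members fell and none rose, beside 7.55% of all genes that fell, 15.2% that rose and 22.7% called in either direction. At D14, 10 fell and none rose, with 4.58% of all genes lower, 8.71% higher and 13.3% called. The median log2 fold of the members was -0.71, -0.71 and -0.37 at D2, D7 and D14, where the median of all genes was 0.16, 0.13 and 0.18. Of all calls in bound RNA 67.3%, 66.8% and 65.5% were higher at D2, D7 and D14. After rescaling by median ratios these shares were 47.2%, 47.2% and 41.4%, and 19, 17 and 10 members fell. The percentages of all genes that fell, given above, are from the fit without rescaling and do not serve as background for these counts. Over the 3 days 23 members fell at least once, and 12 (Crat, Crot, Hadh, Decr1, Eci1, Eci2, Etfa, Etfb, Acaa1a, Acaa1b, Scp2 and Pex11a) were never called in bound RNA.

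The calls in bound RNA fell into several time courses. A group of 7 members fell at all 3 days (Acadm, Acads, Hadha, Hadhb, Acaa2, Etfdh and Ehhadh). Another 7 fell at D2 alone (Acsm1, Acsm2, Acsm3, Acox2, Phyh, Pecr and Hao2). In 6 the fall was called at D7 and not at D2 (Acsl1, Cpt1a, Cpt2, Acadvl, Acadl and Hsd17b4), and Echs1, Acox3 and Cat fell at D2 and D7 but not at D14. Whether a member called at one day and not at another differed between those days was tested separately and is given further on.

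**Figure D1:**
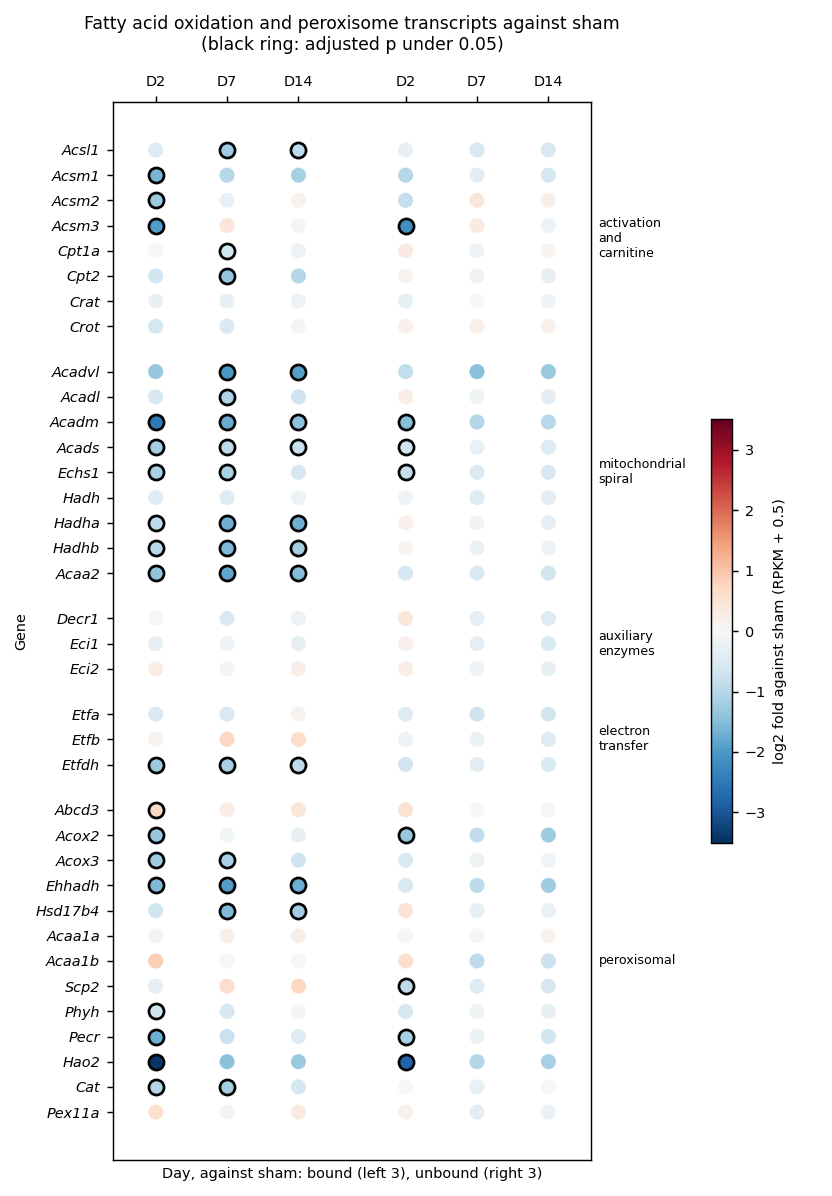
Log2 fold of each of the 36 members (rows, by role) against sham at D2, D7 and D14 in bound RNA (left columns) and unbound RNA (right columns), from blue (lower) to red (higher), with a black ring at an adjusted p under 0.05. The bound columns hold 17, 16 and 10 rings for lower members and 1 for a higher one, and the unbound columns hold 8, 0 and 0.

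In the fit to all libraries unbound RNA showed fewer calls. At D2, 8 members fell and none rose, beside 5.04% of all genes that fell, 9.76% that rose and 14.8% called in either direction, with a member median of -0.28 (all genes 0.20). At D7 and D14 limma called 0 members, where 1.09% and 1.23% of all genes were called. At an unadjusted p under 0.05 the numbers were 7 and 9, and the member medians of -0.28 and -0.41 stood against 0.18 and 0.22 for all genes. Of all calls at D2 66% were higher, and 50.2% after rescaling by median ratios, which left 8 members lower. Fitted to the unbound libraries alone, 2 members fell at D7 and 2 at D14. That fit kept the 8 falls at D2. It further called Acsm1, Acsm2 and Etfdh lower and Hsd17b4 higher at D2 (adjusted p = 0.0217 to 0.0473), so fewer calls in unbound RNA did not hold there. The percentages of all genes that fell or were called, given above, are from the fit to all libraries without rescaling. The 8 calls at D2 were Acsm3, Acadm, Acads, Echs1, Acox2, Pecr, Hao2 and Scp2, all but Scp2 also lower in bound RNA. Only Hao2 kept its call whichever single library was left out: the count fell to 1 without the second D2 mouse, to 3 without the third D2 mouse or without the first or the third sham mouse, and to 5 without the second sham mouse.

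The D2 count in bound RNA also depended on single libraries. It was 10 without the first sham mouse or without the second D2 mouse, 9 without the third D2 mouse and 22 without the first D2 mouse, whose summed member level (5832 RPKM) was nearest to sham. Calls that held without any single library numbered 8 of 18 at D2, 13 of 16 at D7 and 4 of 10 at D14 in bound RNA. At D14 the count was 5 without the first sham mouse and 13 without the third. At D7 it was 13 without the first sham mouse and 18 without the third. Fitted to the bound libraries alone, 9 members fell at D2, 13 at D7 and 1 (Hadha) at D14. The calls lost in that fit were Acsm2, Acsm3, Hadha, Hadhb, Acox2, Ehhadh, Phyh, Cat and the rise of Abcd3 at D2 (adjusted p = 0.0519 to 0.122) and Cpt1a, Acadl and Cat at D7 (adjusted p = 0.078 to 0.0941). At D14 Acsl1, Acadvl, Acadm, Acads, Hadhb, Acaa2, Etfdh, Ehhadh and Hsd17b4 were lost (adjusted p = 0.0641 to 0.105). With no filter on low values Acsm3, Acox2, Ehhadh and Cat were lost at D2 and Acsl1 and Ehhadh at D14 in bound RNA (adjusted p = 0.0558 to 0.0855), and Acox2, Scp2 and Pecr at D2 in unbound RNA (adjusted p = 0.0644 to 0.0937).

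The activation and carnitine group holds 8 genes that make acyl-CoA or move acyl groups on carnitine. In bound RNA 3 fell at D2, 3 at D7 and 1 at D14, and in unbound RNA 1 fell at D2. Counts by role, here and below, stand beside 6.48%, 7.55% and 4.58% of all genes lower at D2, D7 and D14 in bound RNA. The share higher at D2 in bound RNA was 13.3%, and the share lower at D2 in unbound RNA was 5.04%. A count of 1 in so small a group does not stand out from those shares. Acsl1, a long-chain acyl-CoA synthetase, had 35.1, 33.9 and 20.2 RPKM in sham, 26.6, 19.6 and 16.7 RPKM at D2, 15.99, 10.2 and 10.5 RPKM at D7 and 14.2, 15.2 and 16.1 RPKM at D14 in bound RNA. All D7 and D14 libraries were below all sham libraries, and the D2 libraries overlapped sham. The log2 fold of Acsl1 was -1.24 (SE 0.28, adjusted p = 0.00376) at D7 and -0.91 (SE 0.28, adjusted p = 0.0348) at D14. The D14 call was lost without the first or the second library of sham or of D14, with adjusted p up to 0.129. In unbound RNA Acsl1 had 28.3, 32.2 and 27.4 RPKM in sham, 21.0, 21.5 and 31.7 RPKM at D2, 25.6, 19.5 and 14.8 RPKM at D7 and 26.5, 22.2 and 13.2 RPKM at D14, with no call.

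Cpt2, the inner membrane carnitine palmitoyltransferase, had 266, 213 and 171 RPKM in sham, 245, 99.9 and 103 RPKM at D2, 118, 66.1 and 67.7 RPKM at D7 and 98.3, 109 and 113 RPKM at D14 in bound RNA. The first D2 mouse, at 245 RPKM, lay within the sham range, and every D7 and D14 library was below sham. Cpt2 fell at D7, with a log2 fold of -1.39 (SE 0.34, adjusted p = 0.00638). In unbound RNA Cpt2 had 89.0, 77.6 and 80.5 RPKM in sham, 89.2, 70.6 and 119 RPKM at D2, 86.2, 74.4 and 63.6 RPKM at D7 and 80.6, 93.6 and 37.6 RPKM at D14, and the groups overlapped at each day. At D14 the log2 fold in bound RNA was -0.99 (SE 0.34, adjusted p = 0.0548), and without both libraries of the third D14 mouse it was -1.04 (adjusted p = 0.0346). Cpt1a, the outer membrane carnitine palmitoyltransferase that gates entry of long chains, fell at D7 by a smaller log2 fold of -0.66 (SE 0.21, adjusted p = 0.0288), a call that was lost without the first or the second sham library or any D7 library (adjusted p up to 0.125). Cpt1a had 46.9, 44.3 and 40.3 RPKM at D7 and 71.4, 82.5 and 56.3 RPKM in sham in bound RNA.

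The medium-chain acyl-CoA synthetases Acsm1, Acsm2 and Acsm3 stand together on chromosome 7 and were low at D2. Acsm2 had 543, 285 and 181 RPKM in sham, 161, 126 and 96.8 RPKM at D2, 204, 305 and 248.7 RPKM at D7 and 328, 386 and 297 RPKM at D14 in bound RNA. Its D2 libraries were all below sham, and at D7 and D14 the ranges overlapped sham. The D2 log2 fold was -1.27 (SE 0.32, adjusted p = 0.00792) and ended as a call without the first sham mouse (adjusted p = 0.0645). Acsm1 had 150.0, 125 and 132 RPKM in sham, 106, 30.6 and 25.8 RPKM at D2, 61.3, 82.8 and 58.9 RPKM at D7 and 69.2, 71.7 and 43.1 RPKM at D14 in bound RNA. The sham libraries were above every later one, the first D2 mouse being the nearest. Its D2 log2 fold was -1.61 (SE 0.41, adjusted p = 0.00821) and was not called without the second or the third D2 mouse (adjusted p up to 0.0635). Acsm3 fell at D2 in bound RNA, with a log2 fold of -1.97 (SE 0.59, adjusted p = 0.0229), and in unbound RNA, with a log2 fold of -2.14 (SE 0.59, adjusted p = 0.0179). The spread of Acsm3 in sham was wide, at 42.0, 14.2 and 7.23 RPKM bound and 34.9, 10.9 and 14.3 RPKM unbound, and the bound call was lost without the first sham mouse (adjusted p = 0.156) or the second or the third D2 mouse. The unbound call was lost without the first sham or the second or the third D2 mouse (adjusted p up to 0.107). Exons of Acsm3 overlap Eri2 on the opposite strand, with 34.0% of its 50-base words shared, and whether counting used strand is unknown here.

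The carnitine acyltransferases of short and medium chains were not called. Crot, the peroxisomal carnitine octanoyltransferase, had 99.5, 51.9 and 51.3 RPKM in sham, 50.5, 36.2 and 39.6 RPKM at D2, 56.7, 32.9 and 46.8 RPKM at D7 and 88.6, 49.2 and 65.5 RPKM at D14 in bound RNA. In unbound RNA Crot had 55.8, 38.7 and 48.5 RPKM in sham, 46.0, 40.4 and 79.8 RPKM at D2, 48.0, 61.8 and 55.2 RPKM at D7 and 62.3, 58.4 and 42.5 RPKM at D14. Its groups overlapped at D7 and D14 in bound RNA and at each day in unbound RNA. The log2 fold at D2 was -0.62 (SE 0.30, adjusted p = 0.146) in bound RNA. Crat, carnitine acetyltransferase, had log2 folds of -0.27, -0.28 and -0.19 in bound RNA at D2, D7 and D14.

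The 9 genes of the mitochondrial spiral gave the largest share of calls. In bound RNA 6 fell at D2, 8 at D7 and 6 at D14, and in unbound RNA 3 fell at D2. Acadm, medium-chain acyl-CoA dehydrogenase, had 847, 558 and 709 RPKM in sham, 243, 85.5 and 95.5 RPKM at D2, 254, 174 and 187 RPKM at D7 and 374, 248 and 178 RPKM at D14 in bound RNA. Every sham library was above every injured one, and the D2 libraries were lowest on average. For Acadm the log2 fold was -2.46 (SE 0.35, adjusted p = 6.24e-05) at D2, -1.78 (SE 0.35, adjusted p = 0.00166) at D7 and -1.45 (SE 0.35, adjusted p = 0.0118) at D14. The D14 call was lost without the first sham mouse (adjusted p = 0.0515). In unbound RNA Acadm had 246, 252 and 389 RPKM in sham, 126, 82.2 and 106 RPKM at D2, 113, 171 and 144 RPKM at D7 and 163, 184 and 105 RPKM at D14. The groups did not overlap at any day, and the D2 log2 fold was -1.48 (SE 0.35, adjusted p = 0.00682), not called without the second D2 mouse (adjusted p = 0.0501).

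Hadha, the alpha subunit of the trifunctional protein, had 133, 105 and 110.0 RPKM in sham, 89.7, 55.8 and 42.2 RPKM at D2, 34.8, 37.2 and 33.6 RPKM at D7 and 26.7, 30.8 and 53.1 RPKM at D14 in bound RNA. All sham libraries were above all injured ones, and the D7 libraries lay close together. In unbound RNA Hadha had 37.7, 42.1 and 39.96 RPKM in sham, 45.7, 44.6 and 45.4 RPKM at D2, 35.8, 38.3 and 33.5 RPKM at D7 and 32.6, 33.3 and 27.9 RPKM at D14, a range of 27.9 to 45.7 RPKM over all 12 libraries. The bound log2 fold was -0.95 (SE 0.24, adjusted p = 0.00772) at D2, -1.70 (SE 0.24, adjusted p = 9.47e-05) at D7 and -1.70 (SE 0.24, adjusted p = 0.000338) at D14, and the D2 call was lost without the third D2 mouse (adjusted p = 0.0603). The unbound log2 folds were 0.18, -0.15 and -0.35, none called. The levels of bound and unbound RNA lay together at D7 and apart in sham.

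Hadhb, the beta subunit, was measured at a lower level, 16.2, 13.7 and 10.7 RPKM in sham, 10.8, 4.76 and 5.49 RPKM at D2, 3.67, 4.81 and 3.93 RPKM at D7 and 4.20, 4.97 and 8.40 RPKM at D14 in bound RNA. Its course followed that of Hadha, with every D7 and D14 library below sham and the first D2 mouse inside the sham range. The log2 fold of Hadhb was -0.96 (SE 0.27, adjusted p = 0.0163) at D2, -1.58 (SE 0.27, adjusted p = 0.000597) at D7 and -1.18 (SE 0.27, adjusted p = 0.00887) at D14. At D2 the call was lost without the first sham mouse or the second or the third D2 mouse (adjusted p up to 0.11), and at D14 without the first D14 mouse (adjusted p = 0.052). In unbound RNA Hadhb had 4.61, 4.92 and 5.70 RPKM in sham, 4.47, 4.68 and 7.13 RPKM at D2, 4.03, 4.81 and 3.92 RPKM at D7 and 4.21, 4.80 and 3.90 RPKM at D14. Of the 50-base words of Hadhb transcripts, 18.1% also occur in the annotated gene Gm13910, so reads of Hadhb could have been left out or shared in counting.

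Acads, short-chain acyl-CoA dehydrogenase, had 142, 127 and 103 RPKM in sham, 67.8, 47.7 and 47.1 RPKM at D2, 78.2, 62.6 and 56.5 RPKM at D7 and 68.8, 66.2 and 76.6 RPKM at D14 in bound RNA. No injured library reached the lowest sham library. For Acads the log2 fold was -1.19 (SE 0.22, adjusted p = 0.000733) at D2, -0.91 (SE 0.22, adjusted p = 0.00591) at D7 and -0.80 (SE 0.22, adjusted p = 0.021) at D14. The D14 call was lost without the first or the second library of sham or D14 (adjusted p up to 0.0867). In unbound RNA Acads had 70.9, 68.8 and 84.3 RPKM in sham, 50.1, 42.9 and 41.8 RPKM at D2, 65.4, 66.2 and 53.4 RPKM at D7 and 63.6, 66.2 and 36.7 RPKM at D14 and fell at D2 with a log2 fold of -0.72 (SE 0.22, adjusted p = 0.0287), a call lost when any library but the first D2 mouse was left out (adjusted p up to 0.117).

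The other members of the spiral followed with values of the same order. Acaa2, the mitochondrial thiolase, was the most abundant member in sham bound RNA, at 915 ± 192 RPKM, and had 368 ± 198, 252 ± 25.5 and 320.1 ± 85.3 RPKM at D2, D7 and D14 (SD, n = 3 each). It fell at all 3 days, by -1.42, -1.84 and -1.53 on the log2 scale. Acadvl, very-long-chain acyl-CoA dehydrogenase, fell at D7 with a log2 fold of -2.03 (SE 0.48, adjusted p = 0.00506) and at D14 with a log2 fold of -1.94 (SE 0.48, adjusted p = 0.0124), and 26.9% of its 50-base words lie in Dvl2 on the opposite strand. Acadl, long-chain acyl-CoA dehydrogenase, fell at D7 with a log2 fold of -1.09 (SE 0.29, adjusted p = 0.0112), a call lost without the first or the second sham mouse (adjusted p up to 0.0718). Echs1, short-chain enoyl-CoA hydratase, fell at D2 with a log2 fold of -1.13 (SE 0.24, adjusted p = 0.00224) and at D7 with a log2 fold of -1.10 (SE 0.24, adjusted p = 0.00301), and in unbound RNA at D2 with a log2 fold of -0.84 (SE 0.24, adjusted p = 0.0199), which was lost without the third sham or the second or the third D2 mouse (adjusted p up to 0.111). Hadh, the 3-hydroxyacyl-CoA dehydrogenase of short chains, was the one member of the spiral with no call: its bound log2 folds were -0.43, -0.45 and -0.18.

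**Figure D2:**
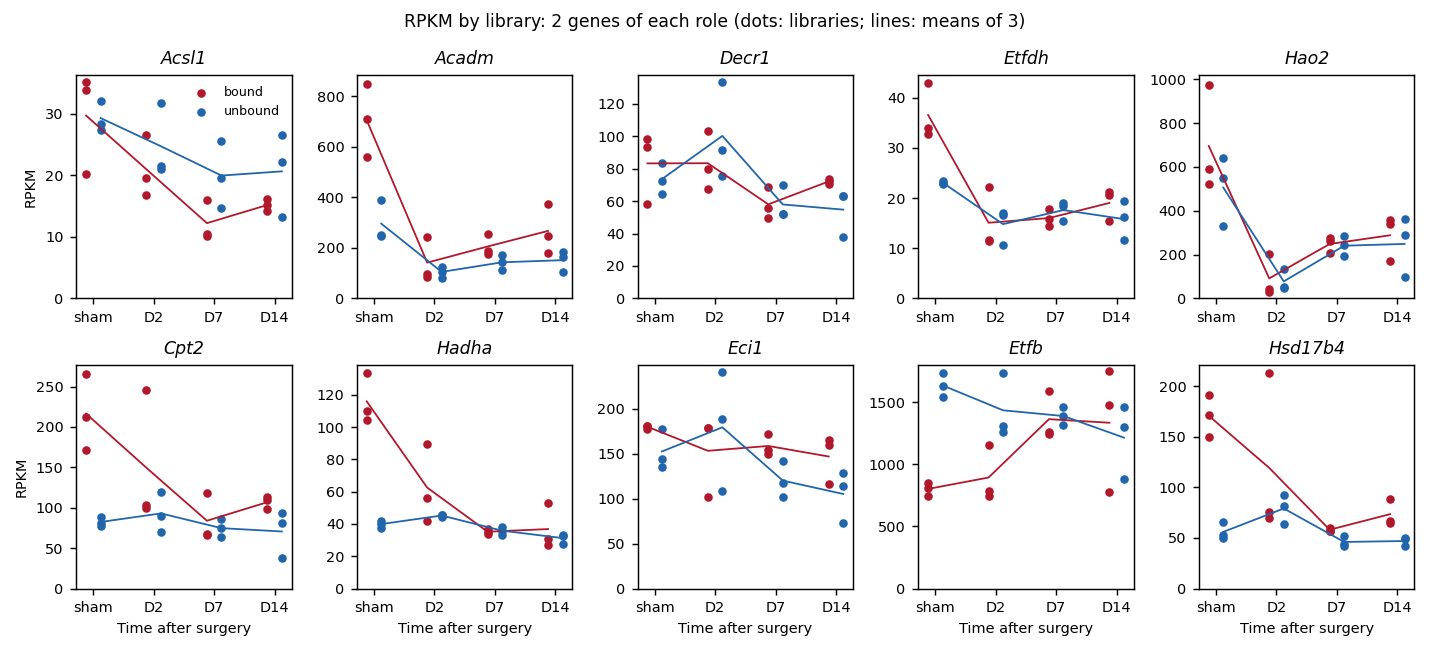
RPKM of 10 members in each library (dots) at sham, D2, D7 and D14, with lines through the means of 3, bound RNA in red and unbound RNA in blue; each column of panels holds 2 genes of one role. Acadm, Hadha, Cpt2 and Hsd17b4 start higher in bound than unbound RNA in sham. By D7 Hadha, Cpt2 and Hsd17b4 come near the unbound level, while Acadm stays above it (means of 205 RPKM bound and 143 RPKM unbound). Etfb starts lower in bound RNA (745 to 851 RPKM) than in unbound RNA (1541 to 1737 RPKM).

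The 3 auxiliary enzymes, which prepare unsaturated chains for the spiral, were not called in any comparison with sham. Decr1, 2,4-dienoyl-CoA reductase, had 98.6, 93.1 and 58.1 RPKM in sham, 103, 67.3 and 79.8 RPKM at D2, 68.5, 49.7 and 55.7 RPKM at D7 and 72.3, 73.3 and 70.7 RPKM at D14 in bound RNA. In unbound RNA Decr1 had 72.3, 83.7 and 64.6 RPKM in sham, 91.7, 75.6 and 133 RPKM at D2, 69.7, 51.9 and 52.2 RPKM at D7 and 62.9, 63.2 and 38.1 RPKM at D14. The bound groups overlapped sham at each day, and the log2 fold at D7 was -0.49 (SE 0.25, adjusted p = 0.164). Eci1, an enoyl-CoA isomerase of mitochondria, had 181, 178 and 181 RPKM in sham, 179, 102 and 179 RPKM at D2, 172, 149.9 and 154 RPKM at D7 and 159.9, 165 and 116 RPKM at D14 in bound RNA. In unbound RNA Eci1 had 144, 178 and 136 RPKM in sham, 189, 109 and 241 RPKM at D2, 142, 102 and 117 RPKM at D7 and 114, 129 and 72.9 RPKM at D14. In unbound RNA the D14 libraries were below sham and the D2 libraries spread widely around it, with a D14 log2 fold of -0.56 (SE 0.28, adjusted p = 0.25). Eci2, a peroxisomal and mitochondrial isomerase, had 46.2, 51.7 and 41.5 RPKM in sham, 47.1, 47.4 and 75.9 RPKM at D2, 57.2, 37.9 and 39.0 RPKM at D7 and 61.6, 56.6 and 45.3 RPKM at D14 in bound RNA. In unbound RNA Eci2 had 47.9, 58.5 and 51.0 RPKM in sham, 53.4, 54.5 and 84.4 RPKM at D2, 49.6, 43.8 and 43.3 RPKM at D7 and 43.8, 44.1 and 40.7 RPKM at D14. The third D2 mouse held the highest Eci2 value in both fractions, and the other D2 libraries lay within the sham range. The D2 log2 fold was 0.26 (SE 0.22, adjusted p = 0.438) in bound RNA. The tests did not show these 3 genes to differ from sham, nor to equal it.

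The electron transfer genes carry electrons from the acyl-CoA dehydrogenases to ubiquinone, and of the 3 genes Etfdh was called in bound RNA. Etfdh, the ubiquinone oxidoreductase, had 43.0, 32.8 and 33.9 RPKM in sham, 22.2, 11.4 and 11.6 RPKM at D2, 17.8, 14.5 and 15.8 RPKM at D7 and 21.1, 20.6 and 15.4 RPKM at D14 in bound RNA. Every sham library was above every injured library. The log2 fold of Etfdh was -1.31 (SE 0.24, adjusted p = 0.000869) at D2, -1.16 (SE 0.24, adjusted p = 0.00262) at D7 and -0.93 (SE 0.24, adjusted p = 0.0175) at D14, the last of which was lost without the first sham mouse (adjusted p = 0.0771). In unbound RNA Etfdh had 23.01, 22.8 and 23.5 RPKM in sham, 16.6, 10.7 and 17.1 RPKM at D2, 18.4, 19.0 and 15.4 RPKM at D7 and 19.5, 16.3 and 11.7 RPKM at D14, below sham at each day with no call.

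Etfb, the beta subunit of the electron transfer flavoprotein, had 851, 745 and 811 RPKM in sham, 747, 782 and 1154 RPKM at D2, 1589, 1243 and 1261 RPKM at D7 and 1478, 1753 and 776 RPKM at D14 in bound RNA. The D7 libraries were all above sham, and at D14 the first and the second mice were above sham while the third was inside its range. For Etfb the log2 fold was 0.76 (SE 0.28, adjusted p = 0.0558) at D7 and 0.66 (SE 0.28, adjusted p = 0.119) at D14. Without both libraries of the third D14 mouse Etfb rose at D14, by 1.01 (adjusted p = 0.00568). In unbound RNA Etfb had 1737, 1632 and 1541 RPKM in sham, 1737, 1307 and 1264 RPKM at D2, 1464, 1389 and 1316 RPKM at D7 and 1302, 1463 and 883 RPKM at D14, where the D7 and D14 libraries were below sham and those of D2 overlapped it. The annotated gene Gm45233 holds 43.8% of the 50-base words of Etfb. Etfa, the alpha subunit, had 182, 116 and 209 RPKM in sham, 119, 103 and 123 RPKM at D2, 127, 98.1 and 114 RPKM at D7 and 191, 189 and 162 RPKM at D14 in bound RNA. In unbound RNA Etfa had 231, 211 and 269 RPKM in sham, 195, 144 and 174 RPKM at D2, 154, 142 and 130.3 RPKM at D7 and 182, 151 and 119 RPKM at D14. In unbound RNA each injured library was below each sham library, and in bound RNA the groups overlapped. The log2 fold of Etfa was -0.54 (SE 0.22, adjusted p = 0.0746) in bound RNA at D7 and -0.73 (SE 0.22, adjusted p = 0.1) in unbound RNA. Rescaling by median ratios called Etfa lower in bound RNA at D2 and D7.

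Of the 13 peroxisomal genes 7 fell and 1 rose at D2 in bound RNA, 4 fell at D7 and 2 at D14, and in unbound RNA 4 fell at D2. Their median log2 fold in bound RNA was -0.71 at D2, -0.60 at D7 and -0.26 at D14. Hao2, a peroxisomal hydroxyacid oxidase, had 591, 974 and 520.2 RPKM in sham, 201, 42.9 and 29.1 RPKM at D2, 275, 208 and 262 RPKM at D7 and 355, 339 and 169 RPKM at D14 in bound RNA. All sham libraries were above all others, and the second and the third D2 mice were lowest. For Hao2 the log2 fold was -3.39 (SE 0.57, adjusted p = 0.000341) at D2, the lowest of any member, and -1.44 (SE 0.57, adjusted p = 0.0729) at D7. In unbound RNA Hao2 had 328, 549.8 and 639 RPKM in sham, 134, 49.9 and 48.5 RPKM at D2, 285, 194 and 242 RPKM at D7 and 360.2, 289 and 95.9 RPKM at D14, with every D2 library below every sham library and a log2 fold of -2.81 (SE 0.57, adjusted p = 0.00221). Both D2 calls held without any single library.

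Pecr, the peroxisomal trans-2-enoyl-CoA reductase, had 689, 352 and 292 RPKM in sham, 248, 106 and 76.8 RPKM at D2, 250.1, 239 and 238 RPKM at D7 and 319, 376 and 236 RPKM at D14 in bound RNA. Its D2 libraries were below every sham library, and those of D14 overlapped sham. The D2 log2 fold was -1.71 (SE 0.38, adjusted p = 0.00335). In unbound RNA Pecr had 424, 289.5 and 447 RPKM in sham, 242, 153 and 141 RPKM at D2, 329, 326 and 307 RPKM at D7 and 315, 289 and 152 RPKM at D14 and fell with a log2 fold of -1.13 (SE 0.38, adjusted p = 0.0469), a call lost without the first or the third sham or the second or the third D2 mouse (adjusted p up to 0.164). Acox3, an oxidase of branched acyl-CoA, had 33.8, 33.6 and 19.9 RPKM in sham, 14.7, 8.56 and 11.9 RPKM at D2, 12.2, 13.8 and 11.96 RPKM at D7 and 16.3, 18.8 and 15.5 RPKM at D14 in bound RNA. The sham libraries were above all injured ones. The log2 fold of Acox3 was -1.27 (SE 0.26, adjusted p = 0.002) at D2 and -1.13 (SE 0.26, adjusted p = 0.00468) at D7. In unbound RNA Acox3 had 18.5, 21.0 and 14.0 RPKM in sham, 11.2, 9.09 and 17.6 RPKM at D2, 16.1, 17.5 and 13.3 RPKM at D7 and 18.5, 19.2 and 12.1 RPKM at D14, with overlap at each day. Acox2, the bile acid intermediate oxidase, fell at D2 in bound RNA with a log2 fold of -1.32 (SE 0.44, adjusted p = 0.0391) and in unbound RNA with a log2 fold of -1.36 (SE 0.44, adjusted p = 0.0417). The bound call was lost without any of 4 libraries (the first or the second sham, the second or the third D2; adjusted p up to 0.163), and the unbound call without any sham library or the second D2 mouse (adjusted p up to 0.243).

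Hsd17b4, the D-bifunctional protein, had 191, 171 and 150.2 RPKM in sham, 213, 69.7 and 75.3 RPKM at D2, 57.2, 57.4 and 59.8 RPKM at D7 and 66.7, 65.1 and 88.8 RPKM at D14 in bound RNA. The first D2 mouse was above every sham library, and the D7 and D14 libraries were all below sham. For Hsd17b4 the log2 fold was -1.54 (SE 0.29, adjusted p = 0.00118) at D7 and -1.22 (SE 0.29, adjusted p = 0.0103) at D14. In unbound RNA Hsd17b4 had 50.1, 52.4 and 65.5 RPKM in sham, 81.2, 63.7 and 92.6 RPKM at D2, 52.1, 42.3 and 43.7 RPKM at D7 and 48.5, 50.1 and 42.3 RPKM at D14, with overlapping groups at D2 and D7. Ehhadh, the L-bifunctional protein, fell at all 3 days in bound RNA, with a log2 fold of -1.56 (SE 0.48, adjusted p = 0.0267) at D2, -1.96 (SE 0.48, adjusted p = 0.00685) at D7 and -1.70 (SE 0.48, adjusted p = 0.025) at D14. Sham levels of Ehhadh ranged widely, at 677, 407 and 199.6 RPKM. The D2 call was lost without the first or the second sham or the second or the third D2 mouse (adjusted p up to 0.164), and the D14 call without the first or the second sham mouse or the second or the third D14 library (adjusted p up to 0.128), or both libraries of the third D14 mouse (adjusted p = 0.0544). Cat, catalase, fell at D2 with a log2 fold of -1.03 (SE 0.33, adjusted p = 0.0304) and at D7 with a log2 fold of -1.19 (SE 0.33, adjusted p = 0.0136). Its D2 call was lost without the first sham or the second or the third D2 mouse (adjusted p up to 0.188), and its D7 call without the first sham mouse (adjusted p = 0.0667).

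Scp2, which encodes a thiolase and a lipid carrier in one gene, had 61.8, 57.3 and 65.2 RPKM in sham, 48.7, 47.4 and 52.7 RPKM at D2, 110.1, 84.1 and 95.7 RPKM at D7 and 148, 137 and 51.3 RPKM at D14 in bound RNA. The D2 libraries were below sham and the D7 libraries above it. At D14 the first and the second mice were above sham and the third below it. In unbound RNA Scp2 had 143, 135 and 155 RPKM in sham, 100.4, 61.6 and 72.1 RPKM at D2, 107, 105 and 101 RPKM at D7 and 112, 107 and 72.2 RPKM at D14, with every injured library below sham. Its D2 fall there, -0.91 (SE 0.28, adjusted p = 0.0356), was lost when any library but the first D2 mouse was left out (adjusted p up to 0.174). Without both libraries of the third D14 mouse Scp2 rose in bound RNA at D14, by 1.21 (adjusted p = 0.00053), where all libraries gave 0.72 (SE 0.28, adjusted p = 0.0934). A pseudogene, Scp2-ps2, holds 29.7% of the 50-base words of Scp2.

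Abcd3, the transporter of branched and very long acyl-CoA into peroxisomes, was the one member that rose, at D2 in bound RNA. It had 51.1, 73.6 and 83.0 RPKM at D2 and 46.1, 38.9 and 36.0 RPKM in sham, with no overlap. The log2 fold of 0.75 (SE 0.23, adjusted p = 0.0275) was lost on median-ratio rescaling (0.53, adjusted p = 0.17) and without the second or the third library of either group (adjusted p up to 0.13). Phyh, phytanoyl-CoA hydroxylase, fell at D2 with a log2 fold of -0.70 (SE 0.22, adjusted p = 0.0312), which was lost without the first or the second sham or the second or the third D2 mouse (adjusted p up to 0.165). The peroxisomal thiolases Acaa1a and Acaa1b share 583 words of 50 bases, 12.4% of those of Acaa1a and 30.5% of those of Acaa1b, so their reads may not be cleanly separated. Acaa1a had log2 folds of -0.12, 0.22 and 0.23 in bound RNA, and Acaa1b had 0.84, -0.04 and 0.02, with no calls. Pex11a, which acts in peroxisome division, had 0.57, -0.11 and 0.32, also with no calls.

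Between the injured days few members changed. In bound RNA at D7 against D2, 3 rose and none fell, beside 3.56% of all genes that rose, 3.53% that fell and 7.09% called. Acsm3 had 30.0, 17.4 and 21.7 RPKM at D7 and 7.06, 2.87 and 2.67 RPKM at D2 in bound RNA. These groups did not overlap, and the log2 fold was 2.41 (SE 0.59, adjusted p = 0.0161). Hao2 rose by 1.95 (SE 0.57, adjusted p = 0.0409) and Scp2 with a log2 fold of 0.95 (SE 0.28, adjusted p = 0.0469). In unbound RNA at D7 against D2, Acsm3 rose by 2.45 (SE 0.59, adjusted p = 0.0223), Acsm2 rose by 1.23 (SE 0.32, adjusted p = 0.0333) and Acaa1b fell with a log2 fold of -1.51 (SE 0.41, adjusted p = 0.0458), where 1.69% of all genes rose, 1.82% fell and 3.51% were called. Each of these 6 calls was lost when some single library was left out. In bound RNA 0 members rose without the second D2 or the first D7 mouse, 1 without the third D2 mouse or the second or the third D7 mouse, and 6 without the first D2 mouse, with adjusted p up to 0.169. In unbound RNA at most 1 rose whichever library was left out. Hao2 and Scp2 lost their call in bound RNA with no filter, with median-ratio rescaling and in the fit to bound libraries alone (adjusted p = 0.0584 to 0.198), as did Acsm3 in the last of these (adjusted p = 0.0708). The fall of Acaa1b was lost with a pseudocount of 0.1 (adjusted p = 0.0535), no filter (0.0964), rescaling (0.0927) and the replicate block (0.0541). Acsm2 in unbound RNA was lost with no filter (adjusted p = 0.067) and with rescaling (0.092), and Acsm3 with no filter (0.0568). In unbound RNA Acaa1b reached an adjusted p of 0.218 without the third D2 mouse, and Acsm2 was lost whichever library was left out (adjusted p up to 0.182). No member of the spiral was called at D7 against D2 in bound RNA. Hadha had a log2 fold of -0.75 (SE 0.24, adjusted p = 0.0565) and Acadm 0.68 (SE 0.35, adjusted p = 0.254). Whether spiral genes differed from the members that rose was not tested.

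At D14 against D7 limma called 0 members, with 0% of all genes called in bound RNA and 0.00729% in unbound RNA. At an unadjusted p under 0.05, 3 members stood out in bound RNA and 0 in unbound RNA. The bound log2 folds of 31 of 36 members were above 0, with a median of 0.30 against 0.02 for all genes, and the widest was 0.68 (SE 0.22, adjusted p = 0.522) for Etfa. In unbound RNA the member median was -0.11 against 0.03 for all genes.

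Bound RNA of sham mice was compared with unbound RNA of the same mice to see which members differed between the fractions before injury. In sham, 8 members were higher in bound RNA and 3 were lower, beside 14.6% of all genes higher, 12.9% lower and 27.6% called. Taken in both directions, the share of members called was near that of all genes. The 8 were Hadha, Hadhb, Acadl, Acadm, Acads and Acaa2 of the spiral, Cpt2 and Hsd17b4, and the 3 were Scp2, Etfb and Abcd3. Hadha had 133, 105 and 110.0 RPKM in sham bound RNA, against 37.7, 42.1 and 39.96 RPKM in sham unbound RNA, a log2 fold of 1.52 (SE 0.24, adjusted p = 0.000159). Hsd17b4 had 191, 171 and 150.2 RPKM bound, against 50.1, 52.4 and 65.5 RPKM unbound, a log2 fold of 1.60 (SE 0.29, adjusted p = 0.000504). The fractions did not overlap for either gene.

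The other members higher in sham bound RNA had smaller differences. The log2 fold was 1.37 (SE 0.34, adjusted p = 0.00543) for Cpt2, 1.32 (SE 0.27, adjusted p = 0.00143) for Hadhb and 1.26 (SE 0.35, adjusted p = 0.0106) for Acadm. It was 1.11 (SE 0.29, adjusted p = 0.00766) for Acadl, lost without the first sham bound library (adjusted p = 0.0517) and in the fit to sham libraries alone (adjusted p = 0.0608). For Acaa2 it was 0.93 (SE 0.34, adjusted p = 0.0431), lost without the first or the second bound or any unbound library (adjusted p up to 0.136), with no filter and with rescaling (adjusted p = 0.0905 and 0.0896), and for Acads 0.72 (SE 0.22, adjusted p = 0.0181), lost without the first or the second library of either fraction (adjusted p up to 0.0767) and with rescaling (adjusted p = 0.0658). On the lower side, Scp2 had 61.8, 57.3 and 65.2 RPKM bound, against 143, 135 and 155 RPKM unbound, a log2 fold of -1.22 (SE 0.28, adjusted p = 0.0036). Etfb had a log2 fold of -1.03 (SE 0.28, adjusted p = 0.00978), and Abcd3 of -0.76 (SE 0.23, adjusted p = 0.0187), lost without the second library of either fraction (adjusted p up to 0.0678).

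Bound and unbound libraries of one group and number were taken to come from the same mouse, so a fit with the mouse as a block was made as well. It called 20 members in sham, 14 higher and 6 lower in bound RNA. Without the block, 11 members and 27.6% of all genes were called in sham. The share of all genes called by the blocked fit is not given here. Its counts therefore do not show that members were called more often than other genes. The blocked fit further called 1 member at D2 (Etfa, log2 fold -0.56, adjusted p = 0.0499) and 1 at D7 (Phyh, -0.71, adjusted p = 0.0224). Without the block limma called 0 members between the fractions at D2, D7 or D14, where 1.68%, 2.35% and 0.816% of all genes were called, and 5, 3 and 3 members had an unadjusted p under 0.05. For Hadha the bound over unbound log2 fold was 1.52 in sham, 0.39 at D2, -0.03 at D7 and 0.17 at D14. For Scp2 it was -1.22, -0.62, -0.12 and 0.09 at the same times.

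**Figure D3:**
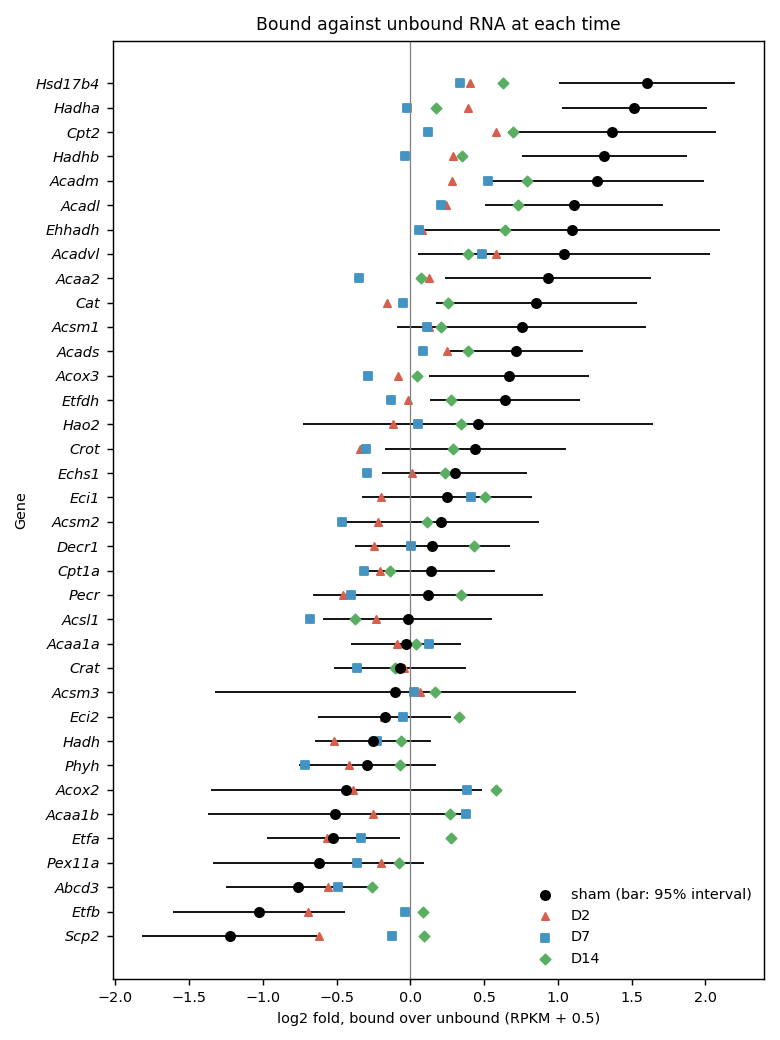
Log2 fold of bound over unbound RNA for each member, sorted by its value in sham (black dots with 95% intervals), with D2 (triangles), D7 (squares) and D14 (diamonds). In sham the values run from 1.60 (Hsd17b4) to -1.22 (Scp2), and no member was called at D2, D7 or D14 in the fit without the mouse block.

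Whether the change after injury differed between the fractions was tested as an interaction. Fitted to all libraries without a block, limma called 0 members at D2, D7 or D14, where 0%, 0.146% and 0.197% of all genes were called and 5, 10 and 6 members had an unadjusted p under 0.05. Hadha had the smallest adjusted p, with a bound change less the unbound change of -1.54 (SE 0.33, adjusted p = 0.0703) at D7 and -1.35 (SE 0.33, adjusted p = 0.0881) at D14. With the mouse as a block both were called (adjusted p = 0.0279 and 0.0333), and so were Acox3 at D7 (-0.95, adjusted p = 0.0465) and Scp2 at D7 (1.10, adjusted p = 0.0408) and D14 (1.31, adjusted p = 0.0221). Hadhb had -1.35 (SE 0.38, adjusted p = 0.129) at D7, Cpt2 -1.25 (SE 0.48, adjusted p = 0.205) and Hsd17b4 -1.26 (SE 0.41, adjusted p = 0.154), none called. Fitted to the libraries of sham and D7 alone, 8 members were called at D7: Hadha (adjusted p = 0.00323), Hsd17b4 (0.00975), Scp2 (0.0113), Hadhb (0.0127), Etfb (0.0236), Acaa2 (0.0297), Cat (0.0448) and Cpt2 (0.0451). The like fit to sham and D14 alone called no member at D14. The shares of all genes above are from the unblocked fit to all libraries, not from the blocked fit or from fits to fewer libraries. In the unblocked fit to all libraries 3 members were called at D2 without the bound library of the first D2 mouse, 1 at D7 without the bound library of the third sham mouse and 4 at D14 without the bound library of the third D14 mouse. Without both libraries of that mouse 3 were called at D14: Hadha (-1.72, adjusted p = 0.0101), Etfb (1.25, adjusted p = 0.0346) and Scp2 (1.60, adjusted p = 0.00766). These interactions share the sham libraries of both fractions with the comparisons before them.

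The composition of the fractions moved with these results. RPKM summed over all genes to between 355825 and 398894 in sham bound RNA, against 495850 to 514299 in sham unbound RNA. Markers of some other cells were higher in sham bound RNA. The 4 podocyte markers summed to 58.4, 68.2 and 166 RPKM, against 22.4, 20.6 and 15.2 RPKM unbound, and all 4 were called higher. The 6 principal cell markers summed to 207, 441 and 1658 RPKM bound, against 93.3, 130.3 and 132 RPKM unbound, with 3 called higher. The 5 adipocyte markers, of tissue that also oxidises fatty acids, summed to at most 8.09 RPKM in any library, and 1 of them was abundant enough to be tested. In injured mice, 4 of 4 podocyte and 5 of 6 principal cell markers fell and 4 of 6 macrophage markers rose at D7 in bound RNA, and 7 of 8 injured tubule markers rose at D2 in each fraction. Of all genes, 14.6% were higher in bound than in unbound RNA in sham. At D7 7.55% fell and 15.2% rose in bound RNA, and at D2 13.3% rose in bound and 9.76% in unbound RNA. The part of the cell markers in the results was not tested.

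The 12 proximal tubule markers were also low on average after injury. Whether their course differed from that of the members was not tested. They summed to 16186, 11911 and 8540.1 RPKM in sham bound RNA, 6309, 1943 and 1773 RPKM at D2, 6095, 5824 and 5622 RPKM at D7 and 6716, 9984 and 4805 RPKM at D14. In unbound RNA the sums were 7774, 8302 and 9835 RPKM in sham, 5075, 2679 and 3559 RPKM at D2, 7218, 6479.5 and 5816 RPKM at D7 and 7102, 7837 and 3718 RPKM at D14. Of these markers 6 of 12 fell at D2, 2 at D7 and 0 at D14 in bound RNA, and 4 fell at D2 in unbound RNA. The shares of all genes that fell were 6.48%, 7.55% and 4.58% in bound RNA and 5.04% at D2 in unbound RNA. In sham, 6 of the 12 were lower in bound than in unbound RNA and none was higher, beside 12.9% of all genes lower and 14.6% higher. None of the 12 was at 0 in the table. The 36 members summed to 9602, 7912 and 6454 RPKM in sham bound RNA, 5832, 3391 and 3937 RPKM at D2, 5269, 4439 and 4459 RPKM at D7 and 5997, 6321 and 4452 RPKM at D14. In unbound RNA they summed to 6408, 6383 and 6679 RPKM in sham, 5559.7, 4061 and 5266 RPKM at D2, 5323, 5214 and 4639 RPKM at D7 and 5450.0, 5538 and 3308 RPKM at D14. The summed members over the summed markers gave a ratio of 0.593 to 0.756 in sham, 0.924 to 2.22 at D2, 0.762 to 0.865 at D7 and 0.633 to 0.927 at D14 in bound RNA. On average the markers were lowest at D2 in both fractions, and the member sum in bound RNA lay below the lowest sham library at every injured day.

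**Figure D4:**
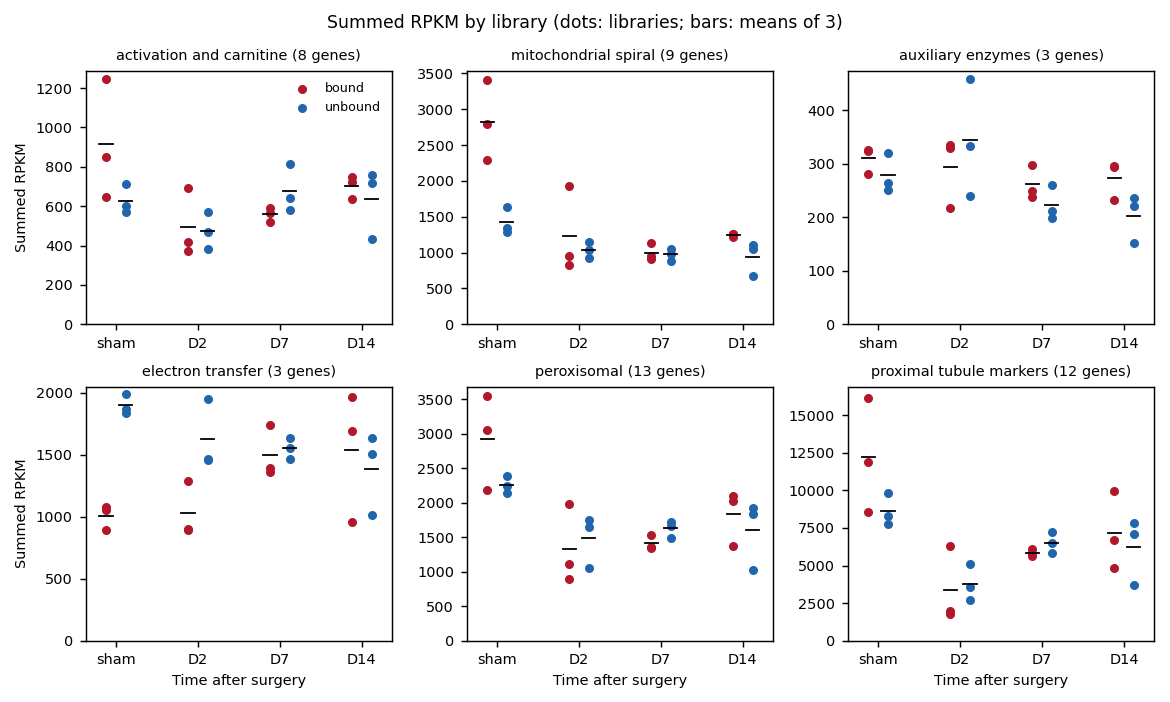
Summed RPKM of the members of each role and of 12 proximal tubule markers in each library (dots; bars are means of 3), bound RNA in red left of unbound RNA in blue, from sham to D14. In bound RNA the spiral genes sum to a mean of 997 RPKM at D7 and 2826 RPKM in sham, the electron transfer genes to 1494 RPKM at D7 and 1008 RPKM in sham, and the proximal tubule markers to 5847 RPKM at D7 and 12212 RPKM in sham.

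Other genes of lipid metabolism were described from lists written beside the members. The counts that follow stand beside shares of all genes in bound RNA of 13.3% higher and 6.48% lower at D2, 15.2% and 7.55% at D7 and 8.71% and 4.58% at D14, and of 9.76% higher and 5.04% lower at D2 in unbound RNA. A count of 1 in a list of 11 to 15 genes is near those shares. Of 6 ketone body enzymes 5 fell at D2 in bound RNA, 2 at D7 and 2 at D14, and 5 fell at D2 in unbound RNA, with none higher. Their median log2 fold in bound RNA was -1.30, -0.40 and -0.22 at D2, D7 and D14, against 0.16, 0.13 and 0.18 for all genes. Oxct1, which returns ketone bodies to acetyl-CoA, fell at D2 with a log2 fold of -2.29 (SE 0.32, adjusted p = 5.43e-05) in bound RNA.

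Of 17 tested dehydrogenases and synthetases of acyl-CoA outside the member list, 12 fell and 2 rose at D2 in bound RNA, 9 fell at D7 and 5 at D14, and 6 fell and 2 rose at D2 in unbound RNA. The median in bound RNA was -0.99, -0.94 and -0.57 at the 3 days. Acad12, an acyl-CoA dehydrogenase family gene, fell with a log2 fold of -2.29 (SE 0.29, adjusted p = 2.09e-05) at D2 in bound RNA. Acad8, the isobutyryl-CoA dehydrogenase of valine breakdown, fell with a log2 fold of -1.42 (SE 0.23, adjusted p = 0.000218). Acsl4, the synthetase that prefers arachidonic acid, rose at D2, by 1.41 (SE 0.28, adjusted p = 0.00139) in bound RNA and 2.08 (SE 0.28, adjusted p = 4.73e-05) in unbound RNA.

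Of 29 other peroxisomal enzymes 9 fell and 1 rose at D2 in bound RNA, 6 fell at D7 and 2 at D14, and 4 fell at D2 in unbound RNA. The median in bound RNA was -0.49, -0.19 and -0.05. Hacl1, the lyase of alpha-oxidation that acts after Phyh, fell at each day in bound RNA, with log2 folds of -1.21, -1.70 and -1.86 (adjusted p = 0.000314 at D14). Mpv17l, a peroxisomal membrane protein gene, fell at D2 in unbound RNA with a log2 fold of -2.19 (SE 0.42, adjusted p = 0.00131), and Nudt12, a peroxisomal hydrolase, fell at D7 in bound RNA with a log2 fold of -1.19 (SE 0.24, adjusted p = 0.00192). Among 15 peroxins, which build the organelle and import its enzymes, 3 fell at each day in bound RNA and 1 rose at D7 and at D14, with medians of -0.22, 0.07 and 0.19. Pex6 fell with a log2 fold of -1.01 (SE 0.27, adjusted p = 0.0106) and Pex5, the import receptor, with a log2 fold of -1.27 (SE 0.34, adjusted p = 0.0131) at D2.

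Of 14 regulators of the pathway 2 fell at D2, 4 at D7 and 2 at D14 in bound RNA, none rose, and none was called in unbound RNA. The median in bound RNA was -0.32 at D7 and -0.08 at D14. Ppargc1a, a coactivator of mitochondrial genes, had 9.01, 12.4 and 9.54 RPKM at D7 and 30.9, 40.7 and 21.4 RPKM in sham bound RNA. These libraries did not overlap, with a log2 fold of -1.51 (SE 0.27, adjusted p = 0.000852). Its relative Ppargc1b fell at D7 with a log2 fold of -1.16 (SE 0.37, adjusted p = 0.0275), and Pdk4, a kinase that spares glucose when fat is burned, with a log2 fold of -1.37 (SE 0.39, adjusted p = 0.016).

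Among 11 acyl-CoA thioesterases 1 rose and 2 fell at D2 in bound RNA, 2 rose and 3 fell at D7, and 1 rose and 4 fell at D14, with medians of -0.06, -0.49 and -0.30. Acot13 had 773, 723 and 688 RPKM at D7 and 123, 107 and 168 RPKM in sham bound RNA, against 565, 534 and 645 RPKM in sham unbound RNA. Its log2 fold was 2.48 (SE 0.34, adjusted p = 7.48e-05) in bound RNA and 0.42 (SE 0.34, adjusted p = 0.575) in unbound RNA. Acot7 rose at D7 by 1.94 (SE 0.31, adjusted p = 0.000343) and Acot11 fell at D2 with a log2 fold of -1.76 (SE 0.35, adjusted p = 0.00142) in bound RNA. In lipid uptake, 1 of 12 genes rose and 1 fell at D2 in each fraction, with a bound median of 0.08. Fabp1, a fatty acid carrier of the cytosol, had 50.03, 70.7 and 149 RPKM at D2 and 4.10, 7.17 and 2.35 RPKM in sham bound RNA, a log2 fold of 4.13 (SE 0.59, adjusted p = 6.43e-05), and rose by 3.58 (SE 0.59, adjusted p = 0.000342) in unbound RNA. Lpl, lipoprotein lipase, fell at D2 with a log2 fold of -1.55 (SE 0.39, adjusted p = 0.011) in unbound RNA, and Slc27a1, a fatty acid transport protein, fell at D7 with a log2 fold of -0.83 (SE 0.23, adjusted p = 0.0144) in bound RNA. Of 14 fatty acid synthesis genes 3 fell and 1 rose at D2 in bound RNA, with a median of -0.08. Acly, ATP citrate lyase, had a log2 fold of -1.13 (SE 0.17, adjusted p = 0.000101), Fasn, fatty acid synthase, of -1.13 (SE 0.23, adjusted p = 0.00213) and Acacb, an acetyl-CoA carboxylase, of -1.15 (SE 0.27, adjusted p = 0.00474).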

How the data were processed

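RNA of 24 libraries from 12 mice was measured by sequencing. Values are RPKM, computed and deposited by the authors with STAR 2.0.4b, featureCounts 1.4.5 and edgeR, per the submitters' processing notes; no source used here names the genome build. Of 41831 lines 1081 repeated another exactly and were dropped, which left 40750 genes, 14673 of them at 0 in all libraries. The 13721 genes at 1 RPKM or more in at least 3 libraries were tested. R 4.3.3 and limma 3.58.1 (trend, no block) were fitted to log2(RPKM + 0.5) with 1 mean per group, 17 comparisons were drawn, and each was adjusted by the Benjamini-Hochberg method over all tested genes. The design gave a median SE of 0.30 (0.43 for interactions). This scale understates the changes of low genes.

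Depth was inferred from the steps of low values, using GENCODE M21 gene lengths, as 15720000 to 24650000 reads per library. With these, 73.8% to 78.2% of values of up to 50 reads came out whole within 0.02, where chance gives 4%, too few for a count test. The series design text calls the replicates biological, with 3 in each group. Bound and unbound libraries of one group and replicate number were taken to come from the same mouse, which shares a kidney homogenate per the labels. No mouse identifier was used for this. The 12 pairs deviated together (correlation 0.27 to 0.67, against -0.60 to 0.31 between numbers), and these ranges overlap. Across times, same-numbered libraries correlated at -0.37 to 0.37 and were not paired.

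The 36 members and all lists were chosen with earlier results of these data known. Members given library by library are, in each role, up to 4 with the smallest adjusted p against sham and up to 2 with the smallest over the interactions; Abcd3, Acsm3, Cpt1a and Ehhadh were added after their values were seen. Of each other list up to 3 genes with the smallest adjusted p against sham are named; some are not reported here. Shared 50-base words were counted between GENCODE M21 transcripts. Alternatives were another pseudocount (0.1), no filter, median-ratio scaling, fits to the compared libraries alone, blocks, and each library left out. The fit without the third D14 mouse was chosen after seeing the data. The fit was tested on simulated data.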

Additional observations from a re-analysis of the deposited data

Results flagged for a closer look

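With the mouse as a block, the change after injury differed between the fractions for 3 members, as a test of the difference itself. Bound and unbound libraries of one group and number were taken as one mouse. The share of all genes called by this blocked fit is not given here. The 0.146% at D7 and 0.197% at D14 are from the fit without the block. The bound change less the unbound change of Hadha was -1.54 on the log2 scale at D7 (adjusted p = 0.0279) and -1.35 at D14 (adjusted p = 0.0333). For Scp2 it was 1.10 at D7 (adjusted p = 0.0408) and 1.31 at D14 (adjusted p = 0.0221), and for Acox3 -0.95 at D7 (adjusted p = 0.0465). Fitted to all libraries without the block, limma called none of these, with adjusted p of 0.0703 and 0.0881 for Hadha, 0.194 and 0.151 for Scp2 and 0.206 for Acox3. Without the block, the fit to sham and D7 alone called Hadha (adjusted p = 0.00323) and Scp2 (0.0113) at D7, but not Acox3. The like fit to sham and D14 alone called no member at D14. The fit without the third D14 mouse, chosen after seeing the data, called Hadha (0.0101) and Scp2 (0.00766) at D14. Groups of 3 mice are too small for a test of single outlying libraries.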

How the results depend on the processing

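The counts of members that fell at D2, D7 and D14 in bound RNA kept within 1.5 times under the other pseudocount, without a filter on low values and under median-ratio scaling, and no called member turned its direction under any alternative run. Without the filter (26077 genes tested) 5 members fell at D2 in unbound RNA, and at D7 against D2 1 rose in bound RNA and 0 in unbound RNA; with median-ratio scaling 1 rose in each. Fits to the compared fraction or times alone gave 9 falls at D2 and 1 at D14 in bound RNA, 2 at D7 and 2 at D14 in unbound RNA, 0 rises at D7 against D2 in bound RNA, 2 calls between the fractions at D7 and 8 interactions at D7; the cause was not tested, and these fits hold fewer libraries. The fit to unbound libraries alone also called Acsm1, Acsm2 and Etfdh lower and Hsd17b4 higher at D2 in unbound RNA. With the mouse as a block, calls between the fractions were 20 in sham, 1 at D2 and 1 at D7, and interactions 3 at D7 and 2 at D14. The shares of all genes in the results are from the fit to all libraries without a block or rescaling. They are not the background of the counts under these alternatives. The replicate number within a fraction as a block changed these counts by at most 1.5 times, and the 1 fall at D7 against D2 in unbound RNA (Acaa1b) became 0. Leaving out each replicate in turn gave 9 to 22 falls at D2, 13 to 18 at D7 and 5 to 13 at D14 in bound RNA, 1 to 8 at D2 and 0 to 1 at D14 in unbound RNA, 0 to 6 rises at D7 against D2 in bound RNA and 0 to 1 in unbound RNA, 8 to 14 calls between the fractions in sham, and interactions of 0 to 3 at D2, 0 to 1 at D7 and 0 to 4 at D14. Without both libraries of the third D14 mouse, chosen after seeing the data, 3 interactions were called at D14. With 3 mice a group, a member needed a change well above the median SE of 0.30 to be called, and values near the pseudocount of 0.5 RPKM are compressed.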
